A study of Mus musculus with 57 samples.

Results

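The endothelial-specific part of the kidney's response to ischemia was taken as a difference of 2 differences. For each gene, the log2 intensity in endothelial arrays from mice 24 h after ischemia-reperfusion injury (IRI) minus that in endothelial arrays from sham-operated mice gave the endothelial response, and the mean of the same difference in 3 other cell lineages was subtracted from it. The contrast used 24 of the 57 arrays of the study, 3 arrays in each of 8 groups, and was fitted for all 19192 genes that passed a filter on dim signals. RNA was obtained by translating ribosome affinity purification (TRAP), in which a ribosomal protein carrying a fluorescent tag (eGFP-L10a, the label Rosa26-CAGGS-eGFPL10a) is switched on in 1 lineage by a Cre recombinase and ribosome-bound RNA is pulled down from whole kidney with an antibody to the tag. All mice in the contrast carried this allele. The endothelial line was marked by cdh5-CRE, which the labels assign to vascular endothelium, the nephron line by six2-CRE, the interstitial line by foxd1-CRE, and the myeloid line by lyz2-CRE, which the labels assign to macrophages and monocytes.

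All mice were male, and the strain label of all 57 arrays is a mix of C57BL/6 and 129, although the titles of the wild-type background arrays call them C57BL/6 controls. In the IRI groups the pedicles of both kidneys were occluded for 28 min and the kidneys taken after 24 h of reperfusion, and sham mice had the same operation with no occlusion. Endothelial mice were 6 weeks old in both groups, as were interstitial mice. Nephron mice were 8 weeks old in both groups. In the myeloid line the IRI mice were 9.5 weeks old and the sham mice 7 weeks old, so age and injury cannot be told apart there. The labels call the arrays of a group biological replicates and say no more, and the p-values measure the spread between those arrays. Pulldowns from tissue are enriched rather than pure: kidneys of wild-type mice, and of mice with the tag allele but no Cre driver (the tag-only background), were taken through the same pulldown in the study, with 4 IRI and 2 sham arrays each from mice of 8 weeks. These backgrounds had no test of their own here. Their response is the mean of IRI arrays minus that of sham arrays. Beside an endothelial-led gene, array values or response are given where the response passed 1 log2 unit in the difference's direction. A background can hold a gene at a high level without such a response, and those levels are given for some genes only. The part of these backgrounds in the endothelial values was not tested. Whole-kidney total RNA came from mice of 8 weeks with the tag allele, 3 arrays after IRI and 3 after sham, and mice with no surgery were 6 weeks old in the endothelial, nephron and interstitial lines and 7 weeks old in the myeloid line.

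The endothelium lines every blood vessel of the kidney, from arterioles and glomerular capillaries to the peritubular capillaries and veins. Its cells bind leukocytes through selectins and other adhesion molecules once activated, set vessel tone through nitric oxide, endothelin and natriuretic peptide signalling, and hold clotting in check through thrombomodulin and tissue factor pathway inhibitor. VEGF receptors, angiopoietins and Notch signalling order the sprouting of new vessels and the identity of arteries, and the transcription factors Erg and Sox18 maintain the endothelial state. Cdh5 is also active in the embryonic endothelium from which blood cells arise.

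The endothelial arrays held the markers of their label. The summed linear intensity of 25 endothelial identity genes lay between 73500 and 81300 in the endothelial IRI arrays and between 85600 and 97400 in the endothelial sham arrays. In the other lines the same sum reached at most 28300 in IRI arrays and 29800 in sham arrays, both in the interstitial line. Markers of other cell types were high too. The sum of 26 macrophage, monocyte and dendritic cell genes was 61500 to 78800 in endothelial IRI arrays and 92000 to 105000 in endothelial sham arrays. The latter overlapped the endothelial identity sum of the same arrays. In the myeloid line the macrophage sum was 120000 to 132000 after IRI and 137000 to 145000 after sham. The sum of 26 proximal tubule genes was 60200 to 65000 in endothelial IRI arrays and 65600 to 97900 in endothelial sham arrays. The endothelial line is thus a mixed pulldown, and below, a change in the endothelium means a change in the arrays of this line. Replicates of a group correlated at 0.9845 or higher across genes.

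By this contrast 7633 of 19192 genes (39.8%) passed an adjusted p of 0.05 in limma, 3853 of them higher in the endothelial response (20.1%) and 3780 lower (19.7%). The endothelial response on its own called 10062 genes (52.4%), and the nephron, interstitial and myeloid responses called 37.3%, 48.5% and 36.6%. The same contrast centred on each other line called 6569 genes (34.2%) for the nephron line, 4936 (25.7%) for the interstitial line and 5406 (28.2%) for the myeloid line. A difference of responses can come from the endothelium or from the lines it is set against. Each called gene was therefore sorted by the share of the difference that the endothelial response itself makes up: a gene was called endothelial-led when this share was at least 0.5 and its endothelial response was called, and led by the other lines when the share was under 0.5. The endothelial response and the difference share the endothelial arrays, so the first is not separate evidence for the second.

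By this rule most of the called genes were endothelial-led, but opposite moves elsewhere contributed to many. The difference sets the endothelial response in full against a mean of 3 responses, and such a mean tends to be smaller than a single response. High shares are thus favoured for whichever line is taken. The share was not computed for the other lines, so the split below is not particular to the endothelium. Endothelial-led genes numbered 5225 (68.5% of those called), 2371 higher (12.4% of genes tested) and 2854 lower (14.9%), and 2135 (28%) were led by the other lines, 1262 higher (6.58% of genes tested) and 873 lower (4.55%). The remaining 273 genes were not assigned. Among the endothelial-led genes, no other line moved significantly against the difference's direction in 3887, at least 1 did in 1338, and all 3 did in 22, among them the transcriptional regulator Id4 and the stress kinase Mapk11. In 1356 endothelial-led genes no other line was called in either direction. Among the genes led by the other lines, the endothelial response was not called in 1553, and in 901 all 3 other lines moved opposite to the direction of the difference. A stricter set differed from each of the nephron, interstitial and myeloid responses taken singly, in the same direction and at an adjusted p under 0.05 each time. Taken singly, the endothelial response differed from the nephron response in 44.5% of genes, from the interstitial in 31.9% and from the myeloid in 33.2%. The stricter set held 2360 genes, 776 higher (4.04% of genes tested) and 1584 lower (8.25%).

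**Figure D1:**
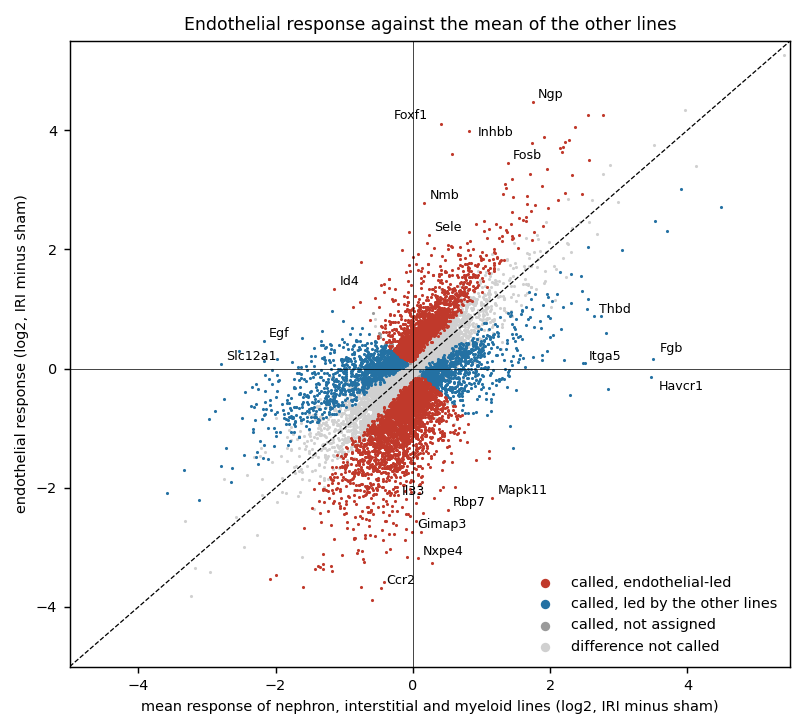
Endothelial response (IRI minus sham, log2, vertical axis) against the mean response of the nephron, interstitial and myeloid lines (log2, horizontal axis) for each gene tested, with endothelial-led genes in red, genes led by the other lines in blue, and all others in grey. The dashed line marks equal responses; Foxf1 lies high above it near the middle of the horizontal axis, whereas Slc12a1 and Havcr1 lie at either side of the plot with an endothelial response near 0.

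Among endothelial-led genes that differed by 2-fold or more, losses outnumbered gains: 161 were higher and 697 lower. The median responses of the 161 were 1.58 log2 units in the endothelial line, 0.00455 in the nephron line, 0.271 in the interstitial line and 0.34 in the myeloid line. Those of the 697 were -1.5, 0.0494, -0.251 and -0.296, in the order endothelial, nephron, interstitial and myeloid. In bulk RNA of this kind, fewer cells of a type and less RNA per cell cannot be told apart. Pulldowns with no Cre driver moved with part of these genes. Of the 161 higher genes, 40 (24.8%) were also up more than 2-fold in IRI over sham arrays of the tag-only background, against 3.03% of all genes, and 38 (23.6%) in the wild-type background, against 5.12%. Of the 697 lower genes, 195 (28%) were down more than 2-fold in the tag-only background, against 6.56% of all genes, and 101 (14.5%) in the wild-type background, against 6.13%.

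**Figure D2:**
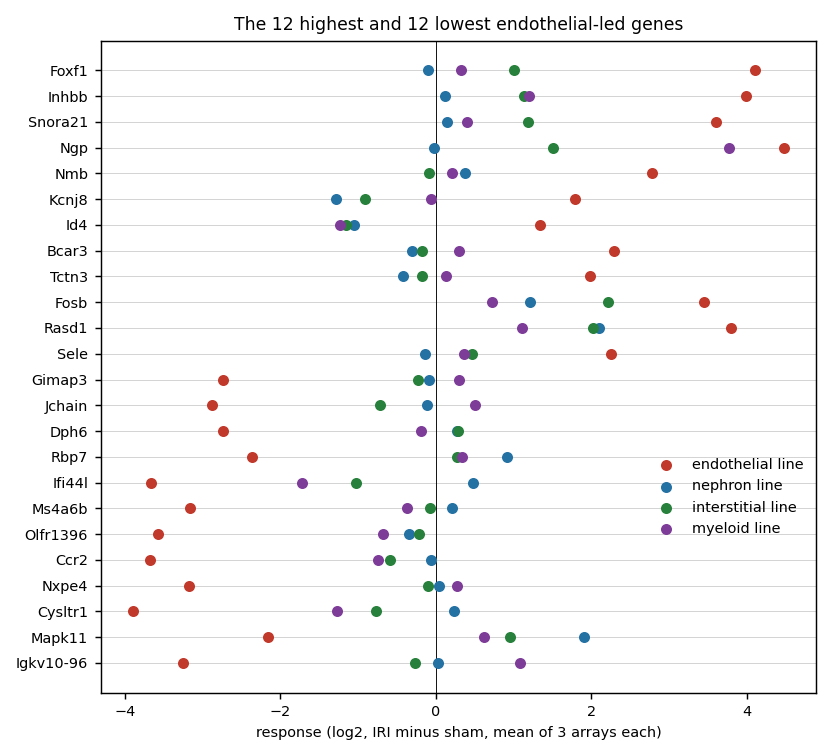
IRI minus sham response (log2) in the endothelial, nephron, interstitial and myeloid lines for the 12 highest and 12 lowest endothelial-led genes. The endothelial point lies farthest from 0 for most genes; for the neutrophil gene Ngp the myeloid point lies close to it.

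The largest endothelial-led gain was in Foxf1, a forkhead transcription factor of embryonic mesenchyme and lung endothelium. Its log2 intensity was 11.22, 11.63 and 11.75 in endothelial IRI arrays and 7.57, 7.24 and 7.50 in endothelial sham arrays. The IRI arrays all stood more than 3 log2 units above the sham arrays; over all genes tested, endothelial IRI and sham arrays did not overlap in 63%. In the nephron line the values were 7.34, 7.22 and 7.21 after IRI and 7.45, 7.28 and 7.36 after sham, in the interstitial line 8.69, 8.45 and 8.95 after IRI and 7.68, 7.79 and 7.61 after sham, and in the myeloid line 7.57, 7.57 and 7.68 after IRI and 7.31, 7.12 and 7.39 after sham. The nephron groups overlapped, and the interstitial and myeloid groups did not. Foxf1's difference of responses was 3.69 ± 0.15 log2 units (SE, n = 3 arrays per group; limma, adjusted p = 9.13e-13), of which the endothelial response was 4.10, and it exceeded each other line singly. The tag-only background rose too, with 9.80, 8.97, 8.99 and 8.84 in IRI arrays against 7.06 and 7.12 in sham arrays, whereas the wild-type background held 7.38 to 7.89 in IRI arrays against 7.42 and 7.52 in sham arrays.

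Inhbb, which encodes the beta B subunit of activin and inhibin B, followed with 11.73, 11.79 and 11.87 in endothelial IRI arrays, against 8.03, 7.48 and 7.92 in endothelial sham arrays. It also rose in the interstitial line (by 1.13) and the myeloid line (by 1.20), but not detectably in the nephron line (0.11). The difference of responses was 3.17 ± 0.21 (SE; limma, adjusted p = 1.02e-09), and Inhbb was higher in the tag-only background after IRI by 2.44 and in the wild-type background by 1.99. Snora21, a small nucleolar RNA of the class that guides pseudouridylation of ribosomal RNA, had 9.17, 9.00 and 9.08 in endothelial IRI arrays and 5.65, 5.33 and 5.47 in endothelial sham arrays. The interstitial line rose by 1.18 to between 6.43 and 7.05 in IRI arrays, the difference of responses was 3.03 ± 0.14 (SE; limma, adjusted p = 1.18e-11), and the tag-only background was higher after IRI by 1.66. Nmb, encoding the peptide neuromedin B, had 9.79, 9.72 and 10.39 in endothelial IRI arrays and 7.35, 7.10 and 7.11 in endothelial sham arrays. In the nephron, interstitial and myeloid lines all Nmb values lay between 6.64 and 7.74, below every endothelial IRI array, and its difference was 2.62 ± 0.21 (SE; limma, adjusted p = 1.6e-08). The tag-only background held Nmb at 8.87, 7.66, 7.70 and 7.33 in IRI arrays, against 6.66 and 6.74 in sham arrays, which did not overlap, and the wild-type background moved by 0.28. Ngp, a neutrophil granule gene, stood just above Nmb by the difference, at 2.73 ± 0.52 (SE; limma, adjusted p = 0.000343), yet the myeloid line rose nearly as far: Ngp was at 9.21, 9.86 and 9.81 in endothelial IRI arrays and 5.25, 5.20 and 5.01 in endothelial sham arrays, and at 9.98, 7.69 and 9.77 in myeloid IRI arrays and 5.55, 5.28 and 5.32 in myeloid sham arrays. Its response did not differ from the myeloid response at the threshold, so Ngp is endothelial-led by its share without being distinct from every line.

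The promoters of Inhbb, Ngp and Nmb, 3 of the 5 highest endothelial-led genes, are shown so that they can be compared side by side. Each is 300 bases of RefSeq sequence on the strand of the gene, mostly upstream of its start, build GRCm38.p6: chr1:119422199-119422498 on the minus strand for Inhbb, chr9:110419558-110419857 on the plus strand for Ngp, and chr7:80905013-80905312 on the minus strand for Nmb. Capitals mark any match, on either strand, to 5 motifs: the E-box (spelled CACGTG), the core bound by hypoxia-inducible factors (spelled ACGTG, and also found inside every E-box), the AP-1 motif (spelled TGACTCA on either strand), the motif of GATA factors (spelled GATAA) and the palindromic STAT motif (spelled TTCCNGGAA).
Inhbb: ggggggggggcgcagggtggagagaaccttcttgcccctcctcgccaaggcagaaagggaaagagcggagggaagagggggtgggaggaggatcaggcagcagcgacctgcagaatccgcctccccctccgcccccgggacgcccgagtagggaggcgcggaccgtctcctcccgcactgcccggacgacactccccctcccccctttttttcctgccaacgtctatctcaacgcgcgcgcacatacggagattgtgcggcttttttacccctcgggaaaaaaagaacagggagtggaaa
Ngp: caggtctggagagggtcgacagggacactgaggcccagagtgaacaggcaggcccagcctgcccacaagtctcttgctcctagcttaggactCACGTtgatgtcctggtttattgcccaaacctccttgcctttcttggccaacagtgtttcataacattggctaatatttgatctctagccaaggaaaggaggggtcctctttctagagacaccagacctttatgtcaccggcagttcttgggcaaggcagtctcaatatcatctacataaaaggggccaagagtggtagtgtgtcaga
Nmb: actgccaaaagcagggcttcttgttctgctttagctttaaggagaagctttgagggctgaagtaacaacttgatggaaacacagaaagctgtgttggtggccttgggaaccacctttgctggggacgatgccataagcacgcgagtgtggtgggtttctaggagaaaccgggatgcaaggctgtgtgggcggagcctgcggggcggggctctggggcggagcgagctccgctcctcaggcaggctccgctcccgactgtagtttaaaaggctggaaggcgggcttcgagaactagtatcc
The only capitals are in the Ngp promoter, a match to ACGTG on the reverse strand. The ETS core GGAA, sought on both strands and not capitalised because 96% of all 32851 promoters hold it, occurred 5 times in Inhbb, 1 time in Ngp and 3 times in Nmb, and the KLF core CACCC occurred 2 times in Inhbb and in neither of the others (57.5% of all promoters). Of all promoters 19.6% held ACGTG, 7.15% the E-box, 5.2% the AP-1 motif, 25.4% the GATA motif and 1.15% the STAT motif. Promoters were found for 15081 of the 19192 genes tested. Among the 125 promoters of endothelial-led genes higher by 2-fold or more, 25.6% held ACGTG and 12% the GATA motif, against 20.8% and 16.3% among the 576 promoters of those lower by 2-fold or more, and 22.1% and 20.7% among all matched genes tested.

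Other endothelial-led gains differed in what the remaining lines did. Id4, an inhibitor of basic helix-loop-helix transcription factors, rose in the endothelium and fell in all 3 other lines. Its values were 9.97, 10.11 and 9.97 in endothelial IRI arrays and 8.69, 8.64 and 8.71 in endothelial sham arrays, while in the other lines the IRI arrays held 7.55 to 7.84 and the sham arrays 8.57 to 9.32. No IRI array overlapped a sham array of its line, and the endothelial gain made up 1.34 of the difference of 2.49 ± 0.13 (SE), the rest coming from falls of 1.06 in the nephron, 1.16 in the interstitial and 1.23 in the myeloid line. Kcnj8, a pore subunit of ATP-sensitive potassium channels, had 10.23, 10.75 and 10.95 in endothelial IRI arrays and 9.13, 8.73 and 8.71 in endothelial sham arrays. The endothelial gain of Kcnj8 was 1.79 of a difference of 2.54 ± 0.25 (SE), and falls of 1.28 in the nephron line and 0.91 in the interstitial line added the rest. By contrast the endothelial gains of Bcar3, an adaptor in integrin signalling (2.29), and Tctn3, a ciliary transition zone gene (1.99), made up nearly all of their differences of 2.36 ± 0.14 and 2.15 ± 0.14 (SE). Rasd1, a small GTPase, rose in every line, by 3.79 in the endothelial, 2.09 in the nephron, 2.02 in the interstitial and 1.11 in the myeloid line, and by 2.70 in the wild-type background. Tag-only arrays held Rasd1 at 10.99 to 11.62 after IRI and 9.75 and 11.195 after sham, beside 11.03 to 11.72 in endothelial IRI arrays. They held Bcar3 at 10.56 to 10.71 after IRI and 10.08 and 10.16 after sham, beside 10.64 to 10.86 in endothelial IRI arrays. Id4 was at 9.40 to 10.46 there after IRI and 10.22 and 10.62 after sham. The part of this background in these endothelial gains was not tested.

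**Figure D3:**
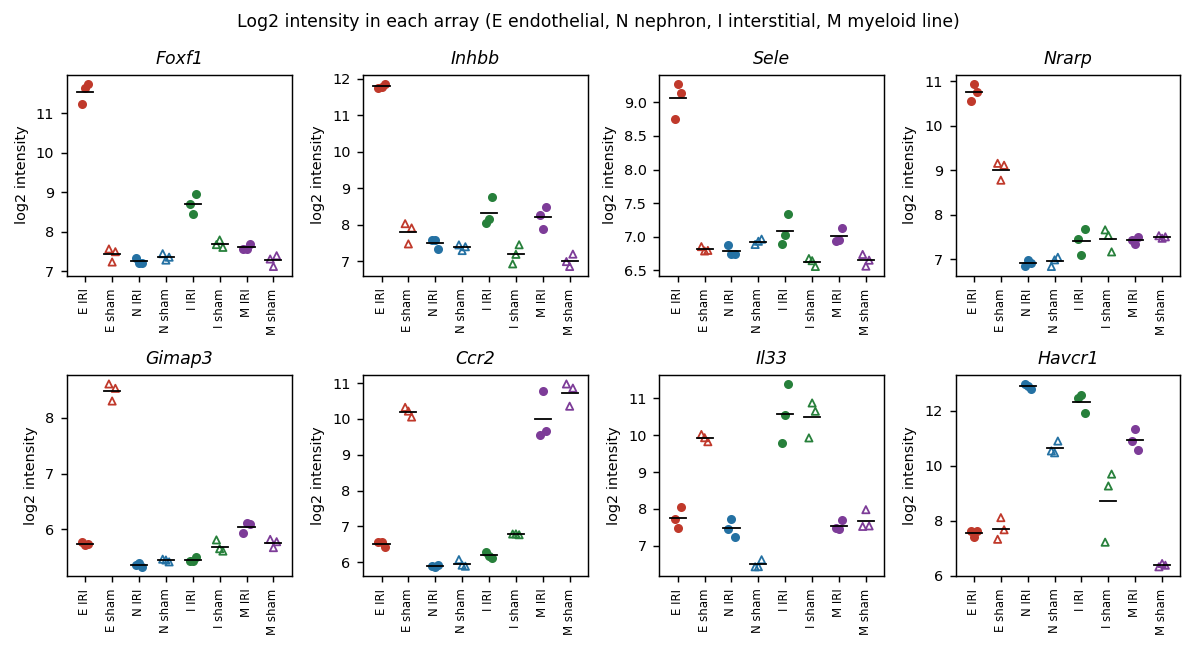
Log2 intensity in each array of 8 genes, Foxf1, Inhbb, Sele, Nrarp, Gimap3, Ccr2, Il33 and Havcr1, by cell line, with filled circles for IRI, open triangles for sham and a line at each group's mean. Among the 4 lines Sele is high in endothelial IRI arrays alone, Nrarp is higher in the endothelial line than in the others and higher still after IRI, Gimap3 is high in endothelial sham arrays alone, and Havcr1 is low in all endothelial arrays and high after IRI in the other 3 lines.

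Several of the lowest endothelial-led genes were high in the endothelial sham arrays and near the level of other lines after IRI. Nxpe4, whose function is not well described, had 6.48, 6.38 and 6.31 in endothelial IRI arrays and 9.56, 9.51 and 9.65 in endothelial sham arrays. All nephron, interstitial and myeloid arrays held between 5.53 and 6.51, whichever the operation. The difference was -3.25 ± 0.08 (SE; limma, adjusted p = 8.6e-16), and the endothelial response was -3.18. Rbp7, a retinol-binding protein, had 6.84, 6.72 and 6.84 in endothelial IRI arrays and 9.42, 9.53 and 8.55 in endothelial sham arrays, a difference of -2.87 ± 0.35 (SE). Mapk11, the beta form of the p38 stress kinase, had 8.64, 8.55 and 8.71 in endothelial IRI arrays and 10.93, 10.62 and 10.84 in endothelial sham arrays. The nephron line went the other way, with 8.88, 9.56 and 9.24 in IRI arrays and 7.08, 7.38 and 7.51 in sham arrays. Mapk11's difference of -3.32 ± 0.22 (SE; limma, adjusted p = 1.2e-09) was made up of an endothelial fall of 2.16 and of gains of 1.91, 0.95 and 0.62 in the nephron, interstitial and myeloid lines, all called. Dph6, a diphthamide biosynthesis enzyme, had 7.70, 7.23 and 7.45 in endothelial IRI arrays and 10.23, 10.11 and 10.27 in endothelial sham arrays, whereas group means in the other lines were 9.61 to 10.56 after IRI and 9.81 to 10.29 after sham. After IRI the endothelial arrays thus lay below those of every other line, and the endothelial fall of 2.74 was nearly the whole of Dph6's difference of -2.86 ± 0.13 (SE). Dph6 was lower in the tag-only background too (response -1.16). Olfr1396, an olfactory receptor gene, had 5.78, 5.49 and 5.56 in endothelial IRI arrays and 9.37, 9.01 and 9.18 in endothelial sham arrays, with a difference of -3.16 ± 0.14 (SE) and a tag-only background response of -1.34.

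Several of the lowest genes are better known from blood cells than from endothelium. Ccr2, the monocyte chemokine receptor, had 6.56, 6.57 and 6.42 in endothelial IRI arrays and 10.32, 10.22 and 10.05 in endothelial sham arrays. In the myeloid line Ccr2 stayed high, with 9.54, 10.78 and 9.66 in IRI arrays and 10.98, 10.36 and 10.86 in sham arrays, and in the nephron line it lay between 5.88 and 6.08 throughout. After IRI the endothelial arrays were thus closer to nephron than to myeloid arrays. The difference was -3.22 ± 0.24 (SE; limma, adjusted p = 6.08e-09). Cysltr1, a leukotriene receptor, had 6.16, 6.17 and 6.12 in endothelial IRI arrays against 9.97, 10.15 and 9.99 in endothelial sham arrays, and differed by -3.29 ± 0.26 (SE). Jchain and Igkv10-96, parts of immunoglobulins, differed by -2.77 ± 0.43 and -3.53 ± 0.67 (SE), with the endothelial fall making up most of both. Igkv10-96 lay between 5.39 and 6.41 in endothelial IRI arrays and at 10.69, 8.87 and 7.52 in endothelial sham arrays, and with no-surgery arrays in place of sham arrays its difference was -1.06 and not called (limma, adjusted p = 0.194), while that of Jchain was -1.60 and called. Ms4a6b, a membrane protein of lymphoid and myeloid cells, differed by -3.07 ± 0.28, and Ifi44l, an interferon-induced gene, by -2.91 ± 0.21 (SE). With no-surgery arrays as the control the difference of Ifi44l was -1.83 and not called (limma, adjusted p = 0.176), the endothelial no-surgery arrays holding 11.30, 6.30 and 11.23. Gimap3, a GTPase of the Gimap family known from lymphocytes, had 5.77, 5.72 and 5.73 in endothelial IRI arrays and 8.61, 8.30 and 8.53 in endothelial sham arrays, and 5.32 to 6.11 in all arrays of the other lines. Its difference of -2.73 ± 0.08 (SE; limma, adjusted p = 1.47e-14) was matched by an endothelial response of -2.74. Of 8 Gimap genes measured, 7 were lower, against 19.7% of all genes tested, and all 7 were endothelial-led. Gimap9 was not called (0.22), and the median difference over the 8 was -0.838.

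The whole lists of blood cell markers bear on these genes. Their counts stand beside 19.7% lower and 20.1% higher over all genes tested. Of 26 macrophage, monocyte and dendritic cell genes 11 were lower in the endothelial response and 0 higher, 10 of them endothelial-led. The list's median difference was -0.436 against 0.0667 over all genes tested. Its median responses were -0.741 in the endothelial, 0.345 in the nephron, -0.701 in the interstitial and -0.18 in the myeloid line. The fall was thus shared with the interstitial line, where 17 of the 26 fell, beside 15 in the endothelial line. Cd68, a lysosomal protein of macrophages, had 10.44, 10.33 and 10.42 in endothelial IRI arrays and 11.71, 11.88 and 11.73 in endothelial sham arrays, and rose by 3.27 in the nephron line, so that opposite moves contributed to its difference of -2.48 ± 0.18 (SE). Ccr2, Mrc1, Fcgr1, Ms4a7 and C3ar1 differed from each other line singly as Cd68 did, although C3ar1 was not called with no-surgery arrays in place of sham arrays (-0.94; limma, adjusted p = 0.0711), whereas the complement genes C1qa, C1qb and C1qc and the antigen-presenting genes H2-Aa and Cd74 were not called. Of 17 lymphocyte genes 12 were lower and 0 higher, 11 of them endothelial-led, including the T cell receptor chain Cd3g (-1.79 ± 0.13, SE) and the cytotoxic granule gene Nkg7 (-1.83 ± 0.17, SE), both distinct from every line. The summed lymphocyte intensity was 2250 to 2550 in endothelial IRI arrays and 3730 to 4270 in endothelial sham arrays, against 3530 to 3830 in myeloid IRI arrays and 3460 to 4380 in myeloid sham arrays. The part of blood cells in the fall of Ccr2, Gimap3 and the immunoglobulin genes was not tested.

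Neutrophil genes moved the other way and were shared with the myeloid line. Of 18 neutrophil genes 13 were higher in the endothelial response than in the mean of the other lines and 1 lower. Over all genes tested the shares were 20.1% and 19.7%. The median difference of the neutrophil genes was 0.861. Their median responses were 2.62 in the endothelial, 0.205 in the nephron, 1.61 in the interstitial and 3.59 in the myeloid line. By share all 13 counted as endothelial-led, but only Camp (0.64 ± 0.09, SE), which encodes cathelicidin, differed from each line singly. The interleukin 1 decoy receptor Il1r2 (1.71 ± 0.22, SE) and the lectin receptor Clec4d (1.69 ± 0.28, SE) were at -0.14 and -0.75 against the myeloid line alone, and Il1r2 was higher after IRI by 1.89 in the wild-type background. The sum of the neutrophil genes was 24700 to 27200 in endothelial IRI arrays and 3060 to 5660 in endothelial sham arrays, and 38700 to 48400 in myeloid IRI arrays and 4480 to 5690 in myeloid sham arrays. It did not overlap between IRI and sham in either line, and the part of neutrophil RNA in other endothelial-led gains was not tested.

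Genes restricted to the endothelial line at rest were mostly lower in the endothelial response than in the other lines. Arrays from mice with no surgery (3 per line, none of them in the contrast) picked out 348 genes (1.81%) that were higher in the endothelial line than in each other line by more than 1 log2 unit, with an adjusted p under 0.05 each time. Of these, 227 (65.2%) were lower in the endothelial response and 23 (6.61%) higher, against 19.7% and 20.1% of all genes tested. The set was chosen for lower values in the other lines, where dim genes have little room to fall. How much of the excess of lower genes follows from that choice was not tested. The median difference was -0.694, and 165 of the lower genes were endothelial-led. The endothelial response itself fell in 186 (53.4%, against 25.6% of all genes) and rose in 66 (19%, against 26.9%). Median responses of the 348 genes were -0.444 in the endothelial, 0.0573 in the nephron, 0.0735 in the interstitial and 0.0964 in the myeloid line, 0.107 in whole-kidney total RNA and 0.113 in the wild-type background. In total RNA 18 of the 348 were called higher and 1 lower, against 305 and 345 of all 19192 genes. One total RNA IRI array stood apart for some genes, tubule genes and others: replicate 3 held Havcr1 at 7.73, and replicates 1 and 2 at 12.01 and 12.58. Replicate 3 held Dph6 at 5.57, and replicates 1 and 2 at 9.27 and 9.38. With the 10 members that also stand in a blood cell or Gimap list left out, 218 of 338 were lower and 23 higher, and the median was -0.683. The set belongs to the line and not to endothelium alone. The blood cell genes Cd3g, Nkg7 and Jchain are members, and Jchain, in none of those lists, stays among the 338. Among the few restricted genes that were higher were Nrarp, Apln, Sox7 and Sox17, taken up below, Apold1 (difference 0.94 ± 0.15, SE, endothelial response 1.76, wild-type background 1.46) and coagulation factor 8 (F8), which fell in every line but least in the endothelium (difference 0.52 ± 0.16, SE, endothelial response -0.68).

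Endothelial identity genes did not move as a block. Of 25 measured, 15 were lower and 3 higher, against 19.7% and 20.1% of all genes tested. Their median difference was -0.464, and the endothelial fall led in 10 of the 15. Gja5, an arterial gap junction protein, had 7.20, 6.96 and 7.16 in endothelial IRI arrays and 8.82, 8.82 and 8.57 in endothelial sham arrays, and 6.67 to 7.39 in all arrays of the other lines. After IRI the endothelial arrays lay within the range of the other lines, and the difference was -1.73 ± 0.10 (SE; limma, adjusted p = 4.06e-10). Erg, the ETS factor of endothelium, had 9.18, 9.35 and 9.25 in endothelial IRI arrays and 10.71, 10.55 and 10.79 in endothelial sham arrays, and differed by -1.27 ± 0.12 (SE). Tek, the angiopoietin receptor Tie2, fell by 1.77 in the endothelium, but by 1.33 in the interstitial line as well, and was not distinct from every line (difference -1.12 ± 0.19, SE). Its background responses were of like size, -1.37 in the tag-only and -1.76 in the wild-type background.

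For other identity genes the difference came mainly from the other lines, or was offset by them. Pecam1, an adhesion protein of endothelial junctions, had 11.96, 11.97 and 11.97 in endothelial IRI arrays and 12.09, 12.03 and 11.94 in endothelial sham arrays, which overlapped. It rose by 0.69 in the nephron, 0.58 in the interstitial and 1.00 in the myeloid line, so its difference of -0.81 ± 0.13 (SE; limma, adjusted p = 5.29e-05) came from gains outside the endothelial line. Kdr, the main VEGF receptor, differed by -0.50 ± 0.19 with an endothelial response of -0.13 that was not called and a gain of 0.54 in the myeloid line. The sialomucin Emcn differed by -0.45 ± 0.11 with an endothelial response of -0.01 and a gain of 1.19 in the nephron line. Flt1, a VEGF receptor, fell by 0.41 in the endothelium and rose in the other lines, for a difference of -1.08 ± 0.15 (SE). Cdh5, whose promoter drives the Cre of this line, had 12.84, 12.93 and 13.00 in endothelial IRI arrays and 12.32, 12.31 and 12.15 in endothelial sham arrays, a gain of 0.67. Cdh5 rose by 0.94 to 1.00 in the other lines, and its difference was -0.31 ± 0.18 (SE; limma, adjusted p = 0.183). Aqp1, a water channel of descending vasa recta and of proximal tubules, was higher by 1.00 ± 0.21 while falling in every line, less in the endothelium (-0.66) than in the nephron (-1.23), the myeloid (-1.73) or the interstitial line.

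Among 34 transcription factors of endothelium 10 were higher and 11 lower, beside 20.1% and 19.7% of all genes tested. Besides Foxf1, the forkhead factors Foxc2 (0.98 ± 0.13, SE) and Foxo1 (0.85 ± 0.14) and the SoxF factors Sox7 (0.53 ± 0.11) and Sox17 (0.48 ± 0.13) were higher and endothelial-led. Gata2 (0.98 ± 0.14) rose by 0.45 in the endothelium but was led by the other lines, at -0.24, -0.38 and -0.98 in the nephron, interstitial and myeloid lines. Elk3, an ETS factor, differed by -1.56 ± 0.15 (SE; limma, adjusted p = 1.06e-07), from an endothelial fall of 1.17 and a nephron gain of 1.17. Lyl1 (-1.10 ± 0.24), Sox18 (-0.98 ± 0.21) and Lmo2 (-0.69 ± 0.15) fell in the endothelium by more than 1 log2 unit each, and by 1.39, 0.77 and 0.96 in the myeloid line. Sox17 and Sox18, members of 1 family, were therefore on opposite sides. Klf2, a factor induced by laminar flow, was lower by 0.72 (-0.72 ± 0.14) without an endothelial change (-0.07), since it rose in the interstitial (0.71) and myeloid (1.22) lines.

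Activation genes that bind or attract leukocytes moved in both directions, 8 of 22 higher and 5 lower, beside 20.1% and 19.7% of all genes tested. Sele, encoding E-selectin, had 8.75, 9.28 and 9.15 in endothelial IRI arrays and 6.85, 6.79 and 6.80 in endothelial sham arrays. All 18 arrays of the other lines held between 6.56 and 7.34, below every endothelial IRI array. The difference was 2.02 ± 0.13 (SE; limma, adjusted p = 8.1e-10). Both backgrounds were higher after IRI with no overlap: the tag-only background held Sele at 7.32, 7.59, 8.01 and 8.65 in IRI arrays and 6.57 and 6.63 in sham arrays, and the wild-type background at 7.62, 7.98, 7.75 and 7.34 in IRI arrays and 6.63 and 6.76 in sham arrays. The chemokine Ccl2 rose by 3.09 in the endothelium, 2.32 in the interstitial and 1.76 in the myeloid line, and its difference of 1.75 ± 0.31 (SE) was not distinct from every line. Fractalkine, Cx3cl1, was higher by 1.18 ± 0.19 and Icam1, a ligand of leukocyte integrins, by 0.82 ± 0.18 (SE), both distinct from every line. In the tag-only background Icam1 was higher after IRI by 2.39 and Ccl2 by 1.42. Icam2, an adhesion molecule of resting endothelium, was lower by 0.96 (-0.96 ± 0.10), from an endothelial fall of 1.07. Vcam1 rose by 0.98 in the endothelium and by 0.82 to 1.11 in the other lines, and its difference was -0.03 ± 0.32 (SE; limma, adjusted p = 0.942). Cxcl10, an interferon-induced chemokine, was higher by 1.52 ± 0.49 (SE), but its endothelial response of 0.94 was not called (limma, adjusted p = 0.0688), and without the third endothelial IRI array the difference was not called either (adjusted p = 0.059), nor was it against the mean of the nephron and interstitial lines (1.06, adjusted p = 0.108). Cxcl10 was higher after IRI by 1.82 in the wild-type background.

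Il33, an alarmin held in endothelial and stromal nuclei, was the lowest of 26 cytokine, chemokine and NF-kB genes. It had 7.72, 7.49 and 8.04 in endothelial IRI arrays and 10.02, 9.93 and 9.82 in endothelial sham arrays. In the interstitial line, the other place with high Il33, the values were 9.79, 10.54 and 11.39 after IRI and 9.93, 10.88 and 10.65 after sham, which overlapped. In the nephron line Il33 was at 7.46, 7.73 and 7.24 after IRI and 6.43, 6.43 and 6.62 after sham, a gain of 0.98. The difference was -2.49 ± 0.32 (SE; limma, adjusted p = 5.64e-06), of which -2.18 was endothelial.

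Genes of sprouting and of the tip cell, the leading cell of a vessel sprout, divided. Of 31 measured 10 were higher and 13 lower, beside 20.1% and 19.7% of all genes tested. All 10 higher genes were endothelial-led, and of the 13 lower ones 6 were endothelial-led and 6 led by the other lines. Angpt2, the angiopoietin that loosens vessel walls, had 10.75, 10.80 and 10.89 in endothelial IRI arrays and 9.42, 9.63 and 9.16 in endothelial sham arrays, and fell by 1.27 in the myeloid line, for a difference of 1.87 ± 0.23 (SE). Its tag-only background was lower after IRI by 1.73 (response -1.73). Pgf, placental growth factor, had 9.35, 9.71 and 9.78 in endothelial IRI arrays and 7.23, 7.43 and 6.89 in endothelial sham arrays, with a difference of 1.51 ± 0.23 (SE). Pgf also rose by 1.21 in the interstitial and 1.32 in the myeloid line. The peptide Apln rose by 2.13 and the vasodilator peptide Adm by 2.88 in the endothelium, and both were higher than in the mean of the other lines, Adm by 1.41 ± 0.21 (SE). Adm rose in every line, by 2.17 in the nephron, 1.33 in the interstitial and 0.89 in the myeloid line. After IRI Apln was higher by 2.23 in the tag-only and 1.45 in the wild-type background, Adm by 1.26 and 2.63, in the same order, and Pgf by 1.41 in the tag-only background. Several receptors of the list were lower. Nrp1, a VEGF co-receptor, had 10.02, 9.80 and 10.11 in endothelial IRI arrays and 11.97, 11.92 and 11.77 in endothelial sham arrays, a difference of -1.73 ± 0.14 (SE; limma, adjusted p = 2.17e-08). Flt4, the receptor of VEGF-C, differed by -1.12 ± 0.19 (SE). Plaur, the urokinase receptor, rose in every line but least in the endothelium (by 2.31, against 3.83, 4.00 and 3.29 in the nephron, interstitial and myeloid lines), so its difference of -1.39 ± 0.20 (SE) was led by the others.

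In the Notch and arteriovenous list 7 of 24 genes were higher and 10 lower, beside 20.1% and 19.7% of all genes tested. Of the 10 lower genes 9 were endothelial-led. Nrarp, a Notch target that feeds back on the pathway, had 10.57, 10.95 and 10.75 in endothelial IRI arrays and 9.16, 8.78 and 9.12 in endothelial sham arrays. In the other lines it stayed between 6.85 and 7.69 with IRI and between 6.84 and 7.67 with sham, and its difference of 1.79 ± 0.16 (SE; limma, adjusted p = 5.73e-08) was endothelial in nearly its whole size (1.74). The ligand Dll1 was higher by 0.84 ± 0.15 (SE). Hey1, another Notch target, had 8.64, 8.77 and 8.42 in endothelial IRI arrays and 10.64, 10.89 and 9.75 in endothelial sham arrays, with a difference of -1.93 ± 0.24 (SE; limma, adjusted p = 2.87e-06) that was -0.81 with no-surgery arrays in place of sham arrays. The receptor Notch4 (-1.36 ± 0.18), the ligand Dll4 (-0.69 ± 0.12), the arterial ligand Efnb2 (-1.23 ± 0.25) and the apelin receptor Aplnr (-1.44 ± 0.14) were lower as well. Cxcl12, a chemokine of arteries and stroma, was higher by 1.34 ± 0.13 (SE) with an endothelial response of -0.16, since it fell by 1.41, 1.98 and 1.12 in the nephron, interstitial and myeloid lines.

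Genes that govern vessel tone moved both ways. Of 24 vasoactive genes 5 were higher and 7 lower, near the 20.1% and 19.7% of all genes tested, and all 7 were endothelial-led. Npr3, the clearance receptor of natriuretic peptides, had 8.18, 8.12 and 8.31 in endothelial IRI arrays and 10.94, 11.03 and 11.19 in endothelial sham arrays, a difference of -2.16 ± 0.21 (SE; limma, adjusted p = 2.16e-07). The guanylyl cyclase receptor Npr1 (-1.10 ± 0.13), the inducible nitric oxide synthase Nos2 (-1.23 ± 0.16) and the adrenomedullin receptor parts Calcrl (-1.04 ± 0.25) and Ramp2 (-0.73 ± 0.17) were lower. The endothelial nitric oxide synthase Nos3 fell by 0.50 in the endothelium, and gains of 0.79 in the interstitial and 0.57 in the myeloid line brought its difference to -0.98 ± 0.16 (SE). Edn1, endothelin 1, rose in every line, by 2.94 in the endothelial and 2.12 to 2.37 in the other lines (difference 0.72 ± 0.25, SE), and by 2.62 and 2.37 in the tag-only and wild-type backgrounds. Of 17 genes of shear stress and vasoprotection 2 were higher and 8 lower, 4 of the 8 endothelial-led.

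Thbd, encoding thrombomodulin, shows how a lower value arose from outside the endothelium. It had 11.71, 11.88 and 12.09 in endothelial IRI arrays and 11.22, 11.09 and 10.74 in endothelial sham arrays, a gain of 0.88. In the interstitial line it had 12.81, 12.87 and 13.05 after IRI and 9.29, 9.49 and 9.33 after sham, a gain of 3.54, with gains of 2.27 in the nephron and 2.10 in the myeloid line. Its difference was -1.76 ± 0.25 (SE; limma, adjusted p = 1.83e-05), and Thbd was higher after IRI in the wild-type background too, by 2.16. With no-surgery arrays in place of sham arrays the differences of Thbd and Tfpi were -1.15 and -0.55, both called. Tfpi, the inhibitor of tissue factor, was in contrast endothelial-led, at -1.20 ± 0.14 with an endothelial fall of 0.84. Tissue factor itself, F3, rose in all lines and most in the endothelium (2.55), with a difference of 0.90 ± 0.20 (SE), beside background responses of 1.54 in the tag-only and 2.47 in the wild-type arrays. Of 18 coagulation and fibrinolysis genes 6 were higher and 6 lower, beside 20.1% and 19.7% of all genes tested. Of the 6 lower ones 5 were led by the other lines.

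Among 22 junction and barrier genes 4 were higher and 7 lower, beside 20.1% and 19.7% of all genes tested. Arhgef15, a signalling gene of endothelium, had 8.48, 8.67 and 9.02 in endothelial IRI arrays and 10.90, 10.80 and 11.12 in endothelial sham arrays, with a difference of -1.96 ± 0.13 (SE; limma, adjusted p = 1.15e-09) and a tag-only background response of -1.14. The fall of Ctnnb1, beta-catenin, was smaller, at -0.82 ± 0.08 (SE), and endothelial in its whole size. Gja1, another connexin, was lower by 1.47 (-1.47 ± 0.28) through gains of 1.29 in the nephron and 1.28 in the interstitial line. Sphk1, which makes sphingosine 1-phosphate, rose by 3.63 in the endothelium and by 2.10 to 2.30 elsewhere, a difference of 1.45 ± 0.19 (SE), and by 1.78 in the tag-only and 2.67 in the wild-type background.

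Of 21 BMP and TGF-beta genes 5 were higher and 3 lower, beside 20.1% and 19.7% of all genes tested, and the list's median difference was -0.0853. Besides Inhbb the higher ones were the matricellular gene Ccn1 (1.56 ± 0.22, SE), the inhibitory Smad6 (1.28 ± 0.12), Bmp2 (0.86 ± 0.27) and Bmp4 (0.78 ± 0.18), the last of which was led by the other lines. Ccn1 rose by 3.71 in the endothelium, and by 3.69 in the wild-type and 2.54 in the tag-only background. The difference of Smad6 was 2.11 with no-surgery arrays in place of sham arrays. The activin beta A subunit Inhba was lower by 1.16 (-1.16 ± 0.24) because it rose by 2.98 in the interstitial line and its endothelial response of 0.34 was not called. Of 34 basement membrane and matrix genes 11 were higher and 5 lower, beside the same shares of all genes tested. The protease Adamts9 (1.55 ± 0.21), the basement membrane protein Nid2 (1.33 ± 0.15) and the collagen IV chains Col4a1 (0.55 ± 0.14) and Col4a2 (0.41 ± 0.15) were higher and endothelial-led. In the tag-only background Adamts9 was higher after IRI by 1.14, Col4a1 by 1.63 and Col4a2 by 1.44. Itga5, an integrin chain that binds fibronectin, had 9.79, 10.12 and 10.38 in endothelial IRI arrays and 10.06, 10.16 and 9.82 in endothelial sham arrays, which overlapped. In the interstitial line Itga5 had 12.21, 11.93 and 12.08 after IRI and 8.15, 8.50 and 8.39 after sham, and the difference of -2.39 ± 0.16 (SE; limma, adjusted p = 1.18e-09) came from such gains in the other lines.

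Several stress genes rose in more than 1 line. Over all genes tested, 20.1% were higher and 19.7% lower by the difference of responses. Of 23 immediate early and AP-1 genes 10 were higher, all endothelial-led, and 3 lower, with median responses of 1.41 in the endothelial, 1.11 in the nephron, 1.57 in the interstitial and 0.721 in the myeloid line. The interstitial median was thus above the endothelial one, the median in the wild-type background was 2.12, and only Fosb, Egr3 and Maff were distinct from every line. Fosb, a FOS family member, had 10.40, 10.59 and 10.28 in endothelial IRI arrays and 7.05, 6.91 and 6.96 in endothelial sham arrays, and differed by 2.07 ± 0.30 (SE; limma, adjusted p = 2.05e-05). It also rose in the wild-type background after IRI, by 3.26, which is nearly its endothelial response of 3.45, and in the tag-only background by 1.01. Maff was higher by 2.17 in the wild-type and 2.35 in the tag-only background. Fosl1 rose by 3.75 in the endothelium and by 2.65 to 4.09 in the other lines, and its difference of 0.24 ± 0.15 was not called (limma, adjusted p = 0.224). Of 12 heat shock genes 10 were higher and 1 lower, with median responses of 0.928, 0.475, 0.431 and -0.0707 in the endothelial, nephron, interstitial and myeloid lines, and of 0.804 in the wild-type background. Those distinct from every line were Hspa1a, Hsp90aa1, Dnajb1 and Hspb8. Hspa1a, the inducible HSP70, had 12.71, 12.67 and 12.70 in endothelial IRI arrays and 9.44, 9.82 and 9.29 in endothelial sham arrays. Its difference was 1.74 ± 0.35 (SE; limma, adjusted p = 0.000623), and Hsph1 (1.25 ± 0.22) and Hspb8 (1.05 ± 0.21) were higher with it. Hsph1 rose by 0.92 in the endothelium and fell by 0.97 in the myeloid line, and its tag-only background response was -1.38. In the wild-type background Hspa1a was higher after IRI by 1.45, Hspb8 by 1.17 and Dnajb1 by 2.23.

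Of 14 targets of NRF2, the regulator of antioxidant genes, 8 were lower by the difference and 1 higher. Of the 8 lower ones 5 were led by the other lines and 3 were endothelial-led. Median responses of the list were 0.28 in the endothelial, 0.9 in the nephron, 0.32 in the interstitial and 0.708 in the myeloid line. The shares over all genes tested were 19.7% lower and 20.1% higher. Nqo1 differed by -1.65 ± 0.30 (SE), with an endothelial fall of 1.06 and gains of 1.12 in the nephron and 0.98 in the myeloid line. Srxn1 rose in all lines, but by 0.89 in the endothelium against 1.86 in the nephron, 2.04 in the interstitial and 1.99 in the myeloid line. A list of 16 circadian clock genes, added after 1 clock gene had been seen among the endothelial-led gains, had 11 higher and 0 lower, with a median difference of 0.639. Per2 (1.55 ± 0.20), Bhlhe41 (1.54 ± 0.24) and Ciart (1.69 ± 0.39) headed it, Per2 having risen by 1.47 in the endothelium and by 0.93 in the myeloid line and fallen by 0.66 in the nephron and 0.51 in the interstitial line. In the tag-only background after IRI Ciart was higher by 2.37, Bhlhe41 by 1.29 and Per2 by 1.06, and in the wild-type background Ciart by 1.06 and Bhlhe41 by 1.28. Only Hlf (1.24 ± 0.16) of the 16 was distinct from every line, and it fell in all of them, least in the endothelium (-0.42).

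**Figure D4:**
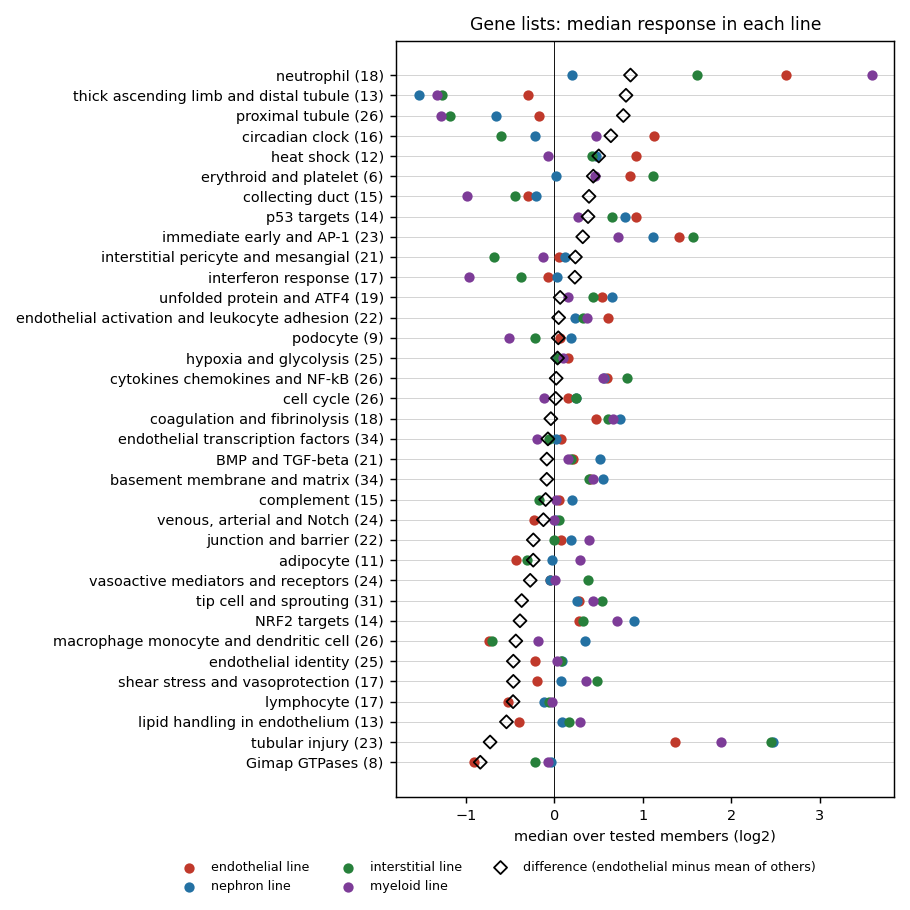
Median IRI minus sham response (log2) of each of the 35 gene lists in the endothelial, nephron, interstitial and myeloid lines, with a diamond for the median difference of responses. Neutrophil genes have a high endothelial median (2.62) and a higher myeloid one (3.59), and tubular injury genes a lower endothelial median (1.37) than the other lines.

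Tubule genes headed the higher genes led by the other lines. Slc12a1, the salt transporter of the thick ascending limb, had 9.73, 9.99 and 10.22 in endothelial IRI arrays and 9.33, 10.48 and 9.87 in endothelial sham arrays, which overlapped. It had 8.95, 8.80 and 8.84 in nephron IRI arrays and 11.46, 11.55 and 11.64 in nephron sham arrays, and fell by 2.73 in the interstitial and 2.99 in the myeloid line, so that its difference of 2.88 ± 0.31 (SE; limma, adjusted p = 6.3e-07) rested wholly on falls elsewhere. Egf, made in the distal tubule, was higher by 2.64 ± 0.36 (SE) with an endothelial response of 0.47 that was not called. The sodium-monocarboxylate transporter Slc5a12 (2.30 ± 0.32, SE) and the tryptophan pathway enzyme Acmsd (2.16 ± 0.38) had endothelial responses of 0.12 and -0.72 that were not called, whereas the glutamate transporter Slc1a1 (2.14 ± 0.23) rose by 0.97 in the endothelium and fell by 1.02, 1.44 and 1.07 in the nephron, interstitial and myeloid lines. Slc12a1 was lower after IRI in the backgrounds too, at -1.23 in the tag-only and -1.79 in the wild-type arrays. Its myeloid sham arrays held 9.53, 10.66 and 9.91, near the endothelial values. How far values outside the nephron line are tubule RNA carried over in the pulldowns was not tested. Nor was any difference in tubular injury between the mice of the lines. Of 26 proximal tubule genes 18 were higher and 0 lower, 16 of them led by the other lines. Of 13 genes of the ascending limb and the distal tubule 10 were higher, 8 led by the other lines. The shares over all genes tested were 20.1% higher and 19.7% lower. The median proximal tubule responses were -0.171 in the endothelial, -0.663 in the nephron, -1.18 in the interstitial and -1.28 in the myeloid line.

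Genes of tubular injury gave the mirror image. Havcr1, the kidney injury molecule KIM-1, had 7.61, 7.42 and 7.64 in endothelial IRI arrays and 7.32, 8.11 and 7.67 in endothelial sham arrays. In the nephron line it had 12.98, 12.91 and 12.80 after IRI and 10.54, 10.47 and 10.90 after sham, and in the myeloid line 10.89, 11.32 and 10.59 after IRI and 6.32, 6.44 and 6.38 after sham. Its difference of -3.62 ± 0.45 (SE; limma, adjusted p = 3.8e-06), the lowest of all genes led by the other lines, thus held an endothelial response of -0.15 that was not called. Fgb, the fibrinogen beta chain, had 6.17, 6.26 and 6.23 in endothelial IRI arrays and 5.97, 6.26 and 5.96 in endothelial sham arrays, and rose by 4.83, 3.49 and 2.15 in the nephron, interstitial and myeloid lines. The fibrinogen gamma chain, Fgg, differed by -3.19 ± 0.48 (SE), with an endothelial response of -0.35 that was not called. The backgrounds rose with the other lines, Havcr1 by 2.43 in the tag-only and 4.63 in the wild-type arrays, and Fgb by 2.82 in the wild-type arrays. As for Slc12a1, the part of carried-over tubule RNA in the values outside the nephron line was not tested. Of 23 tubular injury genes 12 were lower, against 19.7% of all genes tested, and all 12 were led by the other lines. Median responses of the list were 1.37, 2.47, 2.45 and 1.88 in the endothelial, nephron, interstitial and myeloid lines. Mlkl, the effector of necroptosis, had 8.71, 8.72 and 8.87 in endothelial IRI arrays and 9.31, 9.06 and 9.26 in endothelial sham arrays, while the nephron line had 9.84, 9.94 and 10.01 after IRI and 6.32, 6.37 and 6.45 after sham. The endothelial fall of 0.45 was thus a small part of a difference of -2.74 ± 0.15 (SE; limma, adjusted p = 1.49e-10). Layn, a hyaluronan receptor, lay near the boundary between the classes, since its difference of -2.80 ± 0.18 (SE) joined an endothelial fall of 1.34 to a nephron gain of 3.48.

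The other fixed lists are given by their counts, beside 20.1% of all genes tested that were higher and 19.7% that were lower. Of 26 cell cycle genes 4 were higher and 0 lower, of 15 complement genes 0 were higher and 1 lower, of 19 unfolded protein and ATF4 genes 4 were higher and 3 lower, and of 17 interferon response genes 4 were higher and 4 lower. Of 25 hypoxia and glycolysis genes 7 were higher and 4 lower, and of 14 p53 target genes 6 were higher and 3 lower. Of 13 lipid handling genes 1 was higher and 7 lower, 5 of those 7 led by the other lines. Of 21 markers of interstitial cells, pericytes and mesangium 4 were higher and 2 lower, of 9 podocyte markers 3 were higher and 1 lower, of 15 collecting duct markers 4 were higher and 2 lower, of 11 adipocyte markers 1 was lower, and of 6 erythroid and platelet markers 2 were higher and 1 lower.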

How the data were processed

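RNA from TRAP pulldowns was hybridised to Affymetrix Mouse Gene 1.0 ST arrays, and the authors made the deposited values with RMA in Affymetrix Expression Console 1.3.1, per the submitters' processing notes. The deposited values are linear intensities, from 7.15478 to 19571.2, where the analysis had been planned for log2 values, so log2 of the deposited intensity was taken here. Array medians were 109.9 to 126.9 among the 24 arrays used. RMA corrects for background, which can compress the differences of dim genes, and the number of arrays limits the precision.

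Of 35556 probe sets 21789 had 1 gene symbol, 1621 several and 12146 none; the probe set with the highest mean stood for a gene, and genes above a log2 intensity of 5 in at least 3 of the 24 arrays were tested. One linear model over the 8 groups, with 16 residual degrees of freedom, was fitted by limma 3.58.1 (R 4.3.3), whose functions lmFit, contrasts.fit and eBayes were used, and p-values were adjusted by the Benjamini-Hochberg method over all genes tested, with calls at 0.05. Every adjusted p in the text is from such a fit. The scripts were tested on simulated data. Figures were drawn with matplotlib 3.10.9.

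The comparison, its gene lists and the genes named were chosen with earlier results of these data known, and the circadian list was added after seeing values. The text names the 12 highest and 12 lowest endothelial-led genes and the 5 highest and 5 lowest genes led by the other lines, leaving out predicted genes. The rule also gave up to 3 called members of each list by absolute difference; these entered the sensitivity checks, but the text names only some of them, and for lists reported by counts none. Other list members are named as examples chosen after their values were seen. The 34 lists and the circadian one have 733 entries, 685 of them measured. Other scalings, filters, fits, control arrays and sets of comparison lines were tried, and each array was left out in turn.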

Additional observations from a re-analysis of the deposited data

Results flagged for a closer look

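In 7 of 68 groups of 4 background arrays examined among named genes, 1 array stood far from the other three, and chance alone flags about 1 group in 20. In the tag-only background after IRI, Foxf1 was at 9.801 in replicate 1 (the others 8.841 to 8.99), Bcar3 at 10.564 in replicate 1 (10.69 to 10.71) and Fosb at 8.9848 in replicate 2 (8.21 to 8.312). In the wild-type background after IRI, replicate 1 held Inhbb at 8.0037 (the others 9.906 to 10.19) and Fosb at 8.702 (10.96 to 11.33), and replicate 2 held Slc12a1 at 11.983 (10.01 to 10.14) and Havcr1 at 10.866 (12.61 to 12.96).

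Id4 and Mapk11 moved one way in the endothelial line and the opposite way in each other line, with no overlap between IRI and sham arrays within any line, with differences of responses of 2.49 for Id4 and -3.32 for Mapk11, both called by limma.

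Background pulldowns, which the contrast does not use, carried higher signal after IRI than after sham for some endothelial-led genes: in the tag-only background Foxf1 by 2.064, Inhbb by 2.438 and Snora21 by 1.658 log2 units, and in the wild-type background Fosb by 3.262 and Rasd1 by 2.7.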

How the results depend on the processing

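Of 110 named genes, all kept their direction and their call under quantile normalization, an added offset of 32, no filter on dim genes, the fit of 39 TRAP arrays, a trended and robust variance prior, the mean of a gene's probe sets and the replicate block. The replicate numbers did not pair the samples (correlations of same-numbered deviations between -0.241 and 0.171), and the replicate block called 7245 genes, 3503 higher and 3742 lower. With the 6 total RNA arrays also in the fit (45 arrays), the genes distinct from every line were 462 higher and 978 lower. Against the interstitial line alone the endothelial-led higher genes were 1256. In 8900 genes the mean of the endothelial no-surgery arrays was above that of the wild-type sham background arrays. Of these, 4018 were called, 1419 higher and 2599 lower, and 1122 were endothelial-led and higher. Here fewer genes were tested, and they were chosen by their signal in the endothelial line at rest. At an adjusted p under 0.01 the higher genes were 2168 and the endothelial-led higher ones 1251. Leaving out each array in turn gave 6210 to 8146 called genes, 2870 to 4186 higher, 3340 to 3960 lower, 1645 to 2631 endothelial-led higher, 2522 to 2986 endothelial-led lower, 605 to 896 distinct higher, 1335 to 1721 distinct lower and 207 to 232 rest-restricted lower genes. With no-surgery arrays as the control 102 of the 110 named genes kept their call, Igkv10-96, Ifi44l and C3ar1 being among those that did not, and against the nephron, interstitial or myeloid line alone 100, 96 and 95 did. Sign changes were Mcm6 at -0.40 with no-surgery arrays in place of sham, Ppbp at 0.20 against the nephron line alone, Slc7a11 at 0.036 against the interstitial line alone, and against the myeloid line alone Il1r2 at -0.14, Clec4d at -0.75, Hk2 at 0.077, Btg2 at 0.42 and Scarb1 at 0.014; the cause was not tested. Calls were lost on leaving out an endothelial array for Fabp4 (adjusted p = 0.0544 without IRI replicate 1), Gp9 (0.0545 to 0.0887 without IRI replicate 2 or 3 or sham replicate 2 or 3), Cxcl10 (0.059 without IRI replicate 3) and Mcm6 (0.0609 without IRI replicate 3 and 0.088 without sham replicate 2). Against the mean of the nephron and interstitial lines, chosen after seeing the data because the myeloid groups differ in age, 104 of the 110 kept their call and 6 did not.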
